A study of Mus musculus with 12 samples.

Results

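Pou5f1, which encodes Oct4, was set against the class III POU genes Pou3f1, Pou3f2, Pou3f3 and Pou3f4 and the widely expressed Pou2f1, which encodes Oct1. The members were all probes that the platform annotation gives to these 6 mouse genes. Of the 6 genes, 4 had a named probe, with 5 probes in all among the 45281 on the array. Pou5f1 had 2 probes and Pou3f1, Pou3f3 and Pou3f4 had 1 each, while Pou3f2 and Pou2f1 are not analysed here. All 5 probes were among the 18185 tested, which are those with a detection p below 0.01 on 3 or more of the 12 arrays. A probe is called detected on an array where its detection p is below 0.01.

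Total RNA was hybridised to Illumina bead arrays, with 3 arrays for each of 4 groups. The groups were induced pluripotent stem (iPS) cells made with human Nanog (hNanog iPS), iPS cells made with mouse Nanog (mNanog iPS), embryonic stem (ES) cells and Nanog-null neural stem (NS) cells. E14Tg2A, the name of a mouse ES line, is the strain given for all 4. The hNanog iPS, mNanog iPS and ES cultures had LIF in N2B27, the GSK3 inhibitor CHIR99021 at 3 µM and the MEK inhibitor PD0325901 at 1 µM in their medium, and no label gives the NS medium. The labels do not say whether the 3 arrays of a group stand for separate cultures or clones, so p-values measure the spread between these arrays, which may be technical. Whether the species of the Nanog gene or the cell clone goes with a difference between the iPS groups cannot be told apart.

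POU proteins bind DNA through a POU-specific domain joined to a homeodomain, and many recognise the octamer ATGCAAAT or a variant of it. Oct4 keeps cells of the early embryo and ES cells pluripotent, often beside Sox2 on joined octamer and Sox sites. The class III proteins (Oct6 or Tst1 from Pou3f1, Brn2 from Pou3f2, Brn1 from Pou3f3 and Brn4 from Pou3f4) act mostly in the nervous system, where several of them also work with Sox factors. Pou3f1 is in addition expressed in the early epiblast and in Schwann cells.

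The promoter windows of the 3 members that both had a probe and matched the RefSeq promoter table (GRCm38.p6) are shown because these genes lie on opposite sides of the contrast with NS cells. Of the 6 members, 5 matched that table by symbol. Pou5f1 has 2 windows there: the 1 shown lies at the gene's annotated start, and the other, at chr17:35508557-35508856 inside the gene, holds 6 CpG dinucleotides and, of the motifs searched, 1 CCAAT box. Each window runs 5′ to 3′ from 250 bases before to 50 bases after the annotated start, on the plus strand in all 3 cases. The Pou5f1 window is chr17:35505782-35506081, the Pou3f3 window is chr1:42695518-42695817 and the Pou3f4 window is chrX:110814129-110814428. Capitals mark every match, on either strand, to the octamer ATGCAAAT, the nuclear receptor element AGGTCA, the GC box GGGCGG and the CCAAT box, which reads ATTGG when it lies on the minus strand.
Pou5f1: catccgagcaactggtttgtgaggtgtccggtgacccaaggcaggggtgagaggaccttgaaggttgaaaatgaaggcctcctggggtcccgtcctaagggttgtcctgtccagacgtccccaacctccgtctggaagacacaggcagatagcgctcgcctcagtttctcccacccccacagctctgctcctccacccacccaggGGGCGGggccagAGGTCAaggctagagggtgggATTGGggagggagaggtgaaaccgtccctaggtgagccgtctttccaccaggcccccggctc
Pou3f3: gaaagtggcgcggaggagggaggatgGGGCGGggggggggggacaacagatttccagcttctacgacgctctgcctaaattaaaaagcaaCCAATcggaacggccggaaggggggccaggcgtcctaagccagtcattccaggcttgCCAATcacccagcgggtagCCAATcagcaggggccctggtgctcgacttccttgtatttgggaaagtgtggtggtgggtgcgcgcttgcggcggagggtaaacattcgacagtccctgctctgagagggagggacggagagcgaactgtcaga
Pou3f4: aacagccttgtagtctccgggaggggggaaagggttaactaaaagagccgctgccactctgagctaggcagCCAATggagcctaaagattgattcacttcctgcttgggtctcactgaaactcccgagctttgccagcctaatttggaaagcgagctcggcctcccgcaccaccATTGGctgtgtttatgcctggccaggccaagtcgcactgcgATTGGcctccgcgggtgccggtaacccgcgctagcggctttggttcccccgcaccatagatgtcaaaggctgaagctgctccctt
No marked matches overlap in these windows. The octamer was found in none of the 3, and 1.74% of all 32851 windows of this length hold it. AGGTCA, an element that Nr6a1 and other nuclear receptors bind, stood in the Pou5f1 window at 33 bases before the start, and 16.3% of all windows hold this element. The GC box was present in the Pou5f1 and Pou3f3 windows and in 35.7% of all windows. The CCAAT box was present 1 time in Pou5f1, 3 times in Pou3f3 and 3 times in Pou3f4, and in 37.4% of all windows. CpG dinucleotides numbered 11 in the Pou5f1 window, 18 in Pou3f3 and 15 in Pou3f4, against a median of 7 over all windows. These matches describe the letters of the window, and occupancy was not measured.

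The mean signal of an array lay between 317 and 562, with 6 brighter arrays (470 to 562) and 6 dimmer ones (317 to 332), and every group holds both kinds. The brighter arrays were 2 of hNanog iPS, 1 of mNanog iPS, 1 of ES and 2 of NS cells, and the dimmer ones 1, 2, 2 and 1. After group means were removed, arrays of like brightness from different groups correlated at a median r of 0.30 across probes (26 pairs, 25 over 0.1), and arrays of unlike brightness at -0.25 (28 pairs, 0 over 0.1). Between 13654 and 16776 probes were detected on an array. Nanog, the gene removed in NS cells, was detected on none of the 3 NS arrays at either of its probes. Its 2 probes disagreed between the iPS groups: one lay at 6.87 to 7.22 in hNanog iPS, 12.17 to 12.54 in mNanog iPS and 11.51 to 11.68 in ES cells (log2 intensity), the other at 10.98 to 11.07, 11.21 to 11.67 and 12.83 to 13.15 in the same groups. The pluripotent markers (6 of 6 measured) were detected on all arrays of the hNanog iPS, mNanog iPS and ES groups. Nanog, Zfp42, Tfcp2l1 and Fbxo15 were detected on no NS array. Of 8 neural stem cell markers 6 were measured, and all 6 were detected on the 3 NS arrays.

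Pou5f1 was high in all 3 pluripotent groups and not detected on any NS array. On probe ILMN_1217100 the log2 intensity was 12.74, 12.77 and 12.93 in hNanog iPS cells, 12.83, 12.69 and 12.85 in mNanog iPS cells, 12.40, 12.52 and 12.58 in ES cells, and 4.78, 4.96 and 4.85 in NS cells. A second probe gave the same picture. On probe ILMN_1252910 it was 13.41, 13.36 and 13.17 in hNanog iPS, 13.13, 13.23 and 13.33 in mNanog iPS, 13.17, 12.76 and 12.96 in ES cells, and 4.53, 4.39 and 4.40 in NS cells. Every pluripotent array stood above every NS array on both probes. In the deposited signals, before any normalization, ILMN_1217100 spanned 5689 to 8975 in hNanog iPS, 4898 to 8460 in mNanog iPS, 4230 to 7359 in ES and 80.4 to 87.8 in NS cells.

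Since no NS array read Pou5f1 above background, the fold over NS is a lower bound on the normalized scale used here, set against the lowest detected level on the NS arrays. On ILMN_1217100 the bound for Pou5f1 in hNanog iPS was at least 192-fold higher (adjusted p = 8.5e-15), in mNanog iPS at least 190-fold (adjusted p = 8.1e-15) and in ES cells at least 155-fold (adjusted p = 1.0e-14), by limma with Benjamini-Hochberg adjustment over all tested probes. On ILMN_1252910 the bounds were 272-fold, 256-fold and 214-fold for the same groups. The fitted log2 differences were 7.95, 7.93 and 7.64 (SE 0.092) on the first probe and 8.87, 8.79 and 8.52 (SE 0.11) on the second. By size these differences ranked 7, 8 and 11 (first probe) and 4, 5 and 5 (second probe) among the 18185 probes, counting those higher than in NS. The RefSeq gene table lists 5 Pou5f1-related sequences, none with a named probe, and whether the Pou5f1 probes read them was not tested. Fewer cells that express a gene and less RNA per cell cannot be told apart in these bulk samples.

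The class III genes had the opposite pattern. Pou3f1 was read at log2 4.72, 5.04 and 4.33 in hNanog iPS, 4.40, 4.52 and 4.58 in mNanog iPS, 4.67, 4.49 and 4.67 in ES cells, against 9.56, 10.55 and 9.67 in NS cells. It was detected on the 3 NS arrays and on no other. Its deposited signals were 57.4 to 93.6 in hNanog iPS, 63.1 to 75.2 in mNanog iPS, 66.0 to 78.6 in ES and 1067 to 1255 in NS cells. The lowest detection p outside NS was 0.040, on hNanog iPS replicate 2. Pou3f1 was at least 21.2-fold lower in hNanog iPS, at least 19.8-fold lower in mNanog iPS and at least 20.2-fold lower in ES than in NS cells (adjusted p = 5.3e-10, 3.7e-10 and 4.4e-10 in that order, limma).

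The NS arrays were less alike for Pou3f1 than for the other class III genes, and NS replicate 2 read higher than replicates 1 and 3. The NS mean was 9.92 ± 0.54 for Pou3f1, 7.07 ± 0.12 for Pou3f3 and 6.46 ± 0.17 for Pou3f4 (log2 intensity, SD, n = 3). In the deposited signals that array was not the highest of the NS group, and it is the only dimmer NS array. Within the brighter arrays the fitted difference from NS was -4.73 in hNanog iPS, -5.03 in mNanog iPS and -4.94 in ES cells, and within the dimmer arrays it was -6.21, -6.08 and -5.96. Each of these fits has at least 1 arm of a single array, apart from hNanog iPS against NS within the brighter arrays, and hNanog iPS against NS within the dimmer arrays is 1 array against 1. They are given as values. For the other members the same fits gave 7.59 to 8.92 for Pou5f1, -2.69 to -2.27 for Pou3f3 and -2.14 to -1.67 for Pou3f4. The part of array brightness in this spread was not tested.

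Pou3f3, which acts in the developing forebrain and kidney, was read at log2 4.41, 4.85 and 4.45 in hNanog iPS, 4.47, 4.54 and 4.63 in mNanog iPS and 4.45, 4.71 and 4.60 in ES cells, against 7.12, 6.93 and 7.16 in NS cells. It was detected on all 3 NS arrays and on no other, with no overlap between NS and the other groups. It was at least 2.94-fold lower in hNanog iPS, 2.73-fold lower in mNanog iPS and 2.79-fold lower in ES than in NS cells (adjusted p = 1.7e-09, 1.5e-09 and 1.8e-09, limma).

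Pou3f4, an X-linked gene needed for the development of the inner ear, was read at 4.50, 4.51 and 4.50 in hNanog iPS, 5.07, 4.63 and 4.35 in mNanog iPS and 4.70, 4.46 and 4.58 in ES cells, against 6.44, 6.64 and 6.30 in NS cells. It was detected on the 3 NS arrays and on no other, and the NS values did not overlap those of any pluripotent group. It was at least 1.92-fold lower in hNanog iPS, 1.79-fold lower in mNanog iPS and 1.82-fold lower in ES than in NS cells (adjusted p = 1.6e-07, 3.9e-07 and 2.3e-07, limma).

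**Figure D1:**
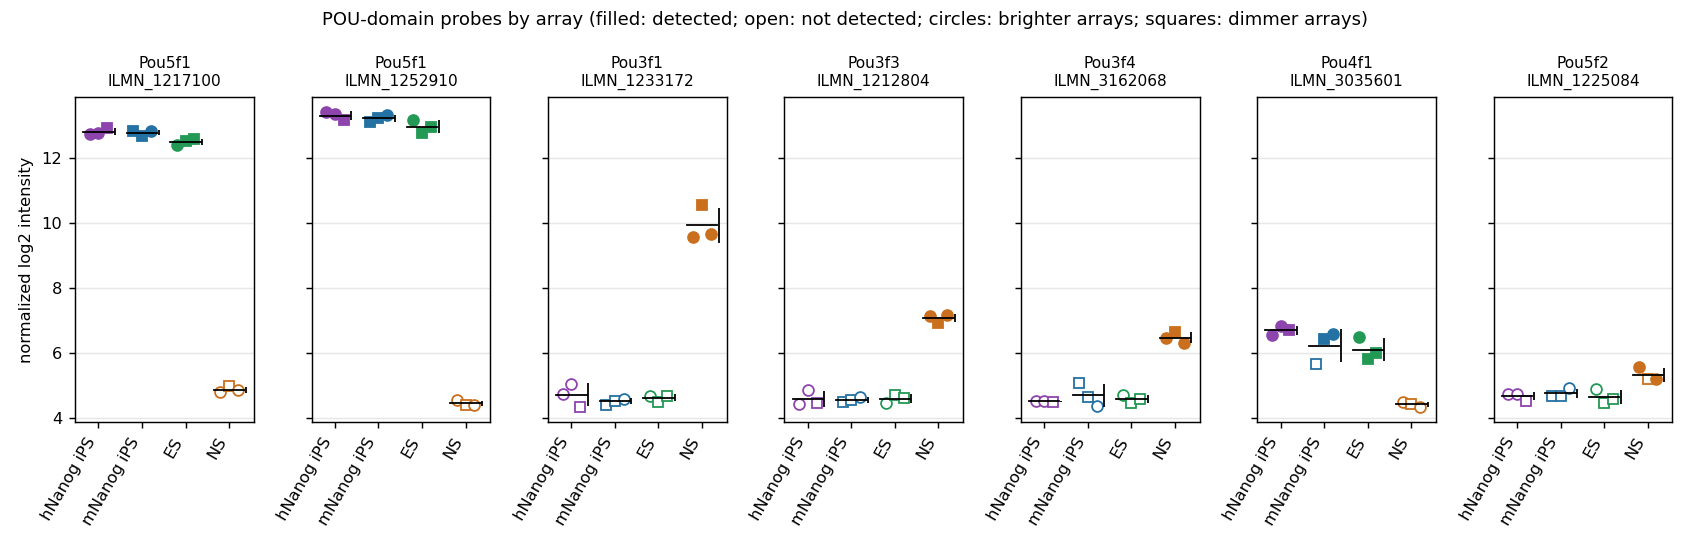
Log2 intensity of each POU probe on the 12 arrays by group (hNanog iPS, mNanog iPS, ES, NS); filled symbols are detected arrays, circles are brighter and squares dimmer arrays, lines are group means and bars the SD. Both Pou5f1 probes sit between 12.40 and 13.41 in the pluripotent groups and under 5 in NS, while Pou3f1, Pou3f3 and Pou3f4 are detected in NS only.

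All 5 member probes passed the threshold in each of the 3 comparisons with NS cells, the 2 Pou5f1 probes higher and the 3 class III probes lower. Of all tested probes, 75% passed in hNanog iPS minus NS, 74.4% in mNanog iPS minus NS and 74.8% in ES minus NS, so most probes differed from NS. The shares that passed as higher were 40.3%, 38.5% and 40.2%, and as lower 34.7%, 35.9% and 34.6%, in the same order. These 3 comparisons share the NS arrays. The class III probes passed the filter on dim probes only through NS, the group where they are high. The Pou5f1 probes, detected on no NS array, passed it only through the pluripotent groups, where they are high. The count of member probes is therefore not evidence about the family. The groups compared did not overlap for any of the 5 probes, as for 77.9%, 75.7% and 76.2% of all tested probes.

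Without background correction the differences from NS were smaller in size, though all passed the threshold. On ILMN_1217100 of Pou5f1 they were 6.41, 6.39 and 6.10 without it (hNanog iPS, mNanog iPS and ES minus NS) and 7.95, 7.93 and 7.64 with it. On ILMN_1252910 they were 7.21, 7.13 and 6.86 without it and 8.87, 8.79 and 8.52 with it. For Pou3f1 they were -3.74, -3.83 and -3.74 without it (hNanog iPS, mNanog iPS and ES minus NS) and -5.22, -5.42 and -5.31 with it. For Pou3f3 they were -1.38, -1.37 and -1.34 without it and -2.50, -2.52 and -2.48 with it. For Pou3f4 they were -1.01, -0.93 and -0.95 without it and -1.96, -1.78 and -1.87 with it. In the authors' processed table the differences were smaller again, from -2.86 to -2.81 for Pou3f1, from -0.79 to -0.75 for Pou3f3 and from -0.53 to -0.49 for Pou3f4. For Pou5f1 they ran there from 5.27 to 5.58 on ILMN_1217100 and from 5.86 to 6.23 on ILMN_1252910. All fold bounds in this report belong to the main setting. In log2 the Pou5f1 bounds were 7.28 to 7.59 on ILMN_1217100 and 7.74 to 8.09 on ILMN_1252910. The bounds were 4.31 to 4.41 for Pou3f1 and 1.45 to 1.55 for Pou3f3. All of these were larger than the size of the differences without background correction and in the processed table. The Pou3f4 bounds, 0.84 to 0.94, were larger than its differences in the processed table only. Such bounds are therefore not lower limits under those settings.

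**Figure D2:**
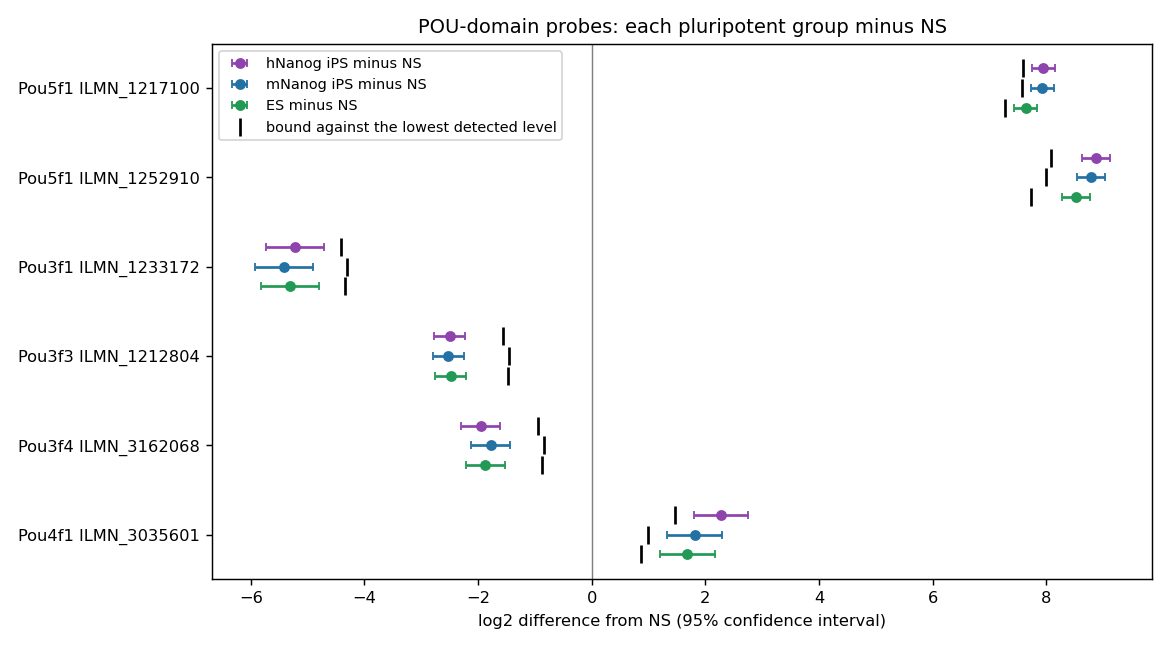
Difference from NS cells of each POU probe (log2 intensity) for hNanog iPS, mNanog iPS and ES, with 95% confidence intervals from limma; black ticks mark the lower bound used where a group was not detected. Pou5f1 lies above 0 at 7.64 to 8.87, the class III probes lie below 0, and Pou4f1 is above 0 at 1.68 to 2.28.

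Among the pluripotent groups, Pou5f1 was slightly higher in both iPS groups than in ES cells on the first probe, and in hNanog iPS on the second. On ILMN_1217100 the difference from ES was 0.31 in hNanog iPS (SE 0.092, 95% interval 0.11 to 0.51, adjusted p = 0.028) and 0.29 in mNanog iPS (SE 0.092, 95% interval 0.085 to 0.49, adjusted p = 0.032), and neither iPS group overlapped ES. On ILMN_1252910 it was 0.35 in hNanog iPS (SE 0.11, 95% interval 0.10 to 0.60, adjusted p = 0.039) and 0.26 in mNanog iPS (SE 0.11, 95% interval 0.017 to 0.51, adjusted p = 0.097), and both iPS groups overlapped ES on this probe. These differences correspond to 1.20-fold to 1.27-fold. Both iPS comparisons share the ES arrays. Of all tested probes, 25.6% passed in hNanog iPS minus ES and 32.3% in mNanog iPS minus ES, and of the 5 member probes 2 and 1 passed. Higher calls made up 13.4% and 15.6% of tested probes and lower calls 12.2% and 16.7%, and groups did not overlap for 41.9% and 44.3%.

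The 4 differences were positive under every alternative, but the calls moved. Without ES replicate 1 the adjusted p on ILMN_1217100 was 0.093 in hNanog iPS, and without ES replicate 2 it was 0.062; without hNanog iPS replicate 3 it was 0.10 and without hNanog iPS replicate 2 it was 0.055. On ILMN_1252910 in hNanog iPS the call was lost on leaving out 1 array, with an adjusted p of 0.054 without mNanog iPS replicate 2, 0.14 without hNanog iPS replicate 1, 0.12 without hNanog iPS replicate 2, 0.16 without ES replicate 2, 0.093 without ES replicate 3 and 0.051 without NS replicate 3. On ILMN_1217100 in mNanog iPS it was likewise lost, at 0.085 without mNanog iPS replicate 1, 0.094 without mNanog iPS replicate 3, 0.11 without ES replicate 1 and 0.065 without ES replicate 2, and on ILMN_1252910 in mNanog iPS the threshold was passed at 0.031 without ES replicate 1. Within a brightness class the lone arrays (mNanog iPS replicate 3 and ES replicate 1 among the brighter, hNanog iPS replicate 3 among the dimmer) are assumed to vary like the other groups, which supply the spread. Within the brighter arrays the difference from ES on ILMN_1217100 was 0.35 in hNanog iPS (adjusted p = 0.089) and 0.45 in mNanog iPS (adjusted p = 0.058), and within the dimmer arrays it was 0.38 (adjusted p = 0.17) and 0.21 (adjusted p = 0.25). On ILMN_1252910 the within-brightness differences were 0.22 and 0.31 in hNanog iPS and 0.16 and 0.32 in mNanog iPS, and none passed. With brightness as a block all 4 differences passed (adjusted p = 0.011 to 0.029).

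Between the iPS groups no member probe passed, where 13.5% of all tested probes did (6.33% higher and 7.15% lower), and the groups did not overlap for 33.1%. Pou5f1 in hNanog iPS minus mNanog iPS differed by 0.02 (95% interval -0.18 to 0.22, adjusted p = 0.92) on ILMN_1217100 and by 0.09 (95% interval -0.16 to 0.33, adjusted p = 0.69) on ILMN_1252910. The class III probes were below background in the 3 pluripotent groups, so no fold among these groups can be given.

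**Figure D3:**
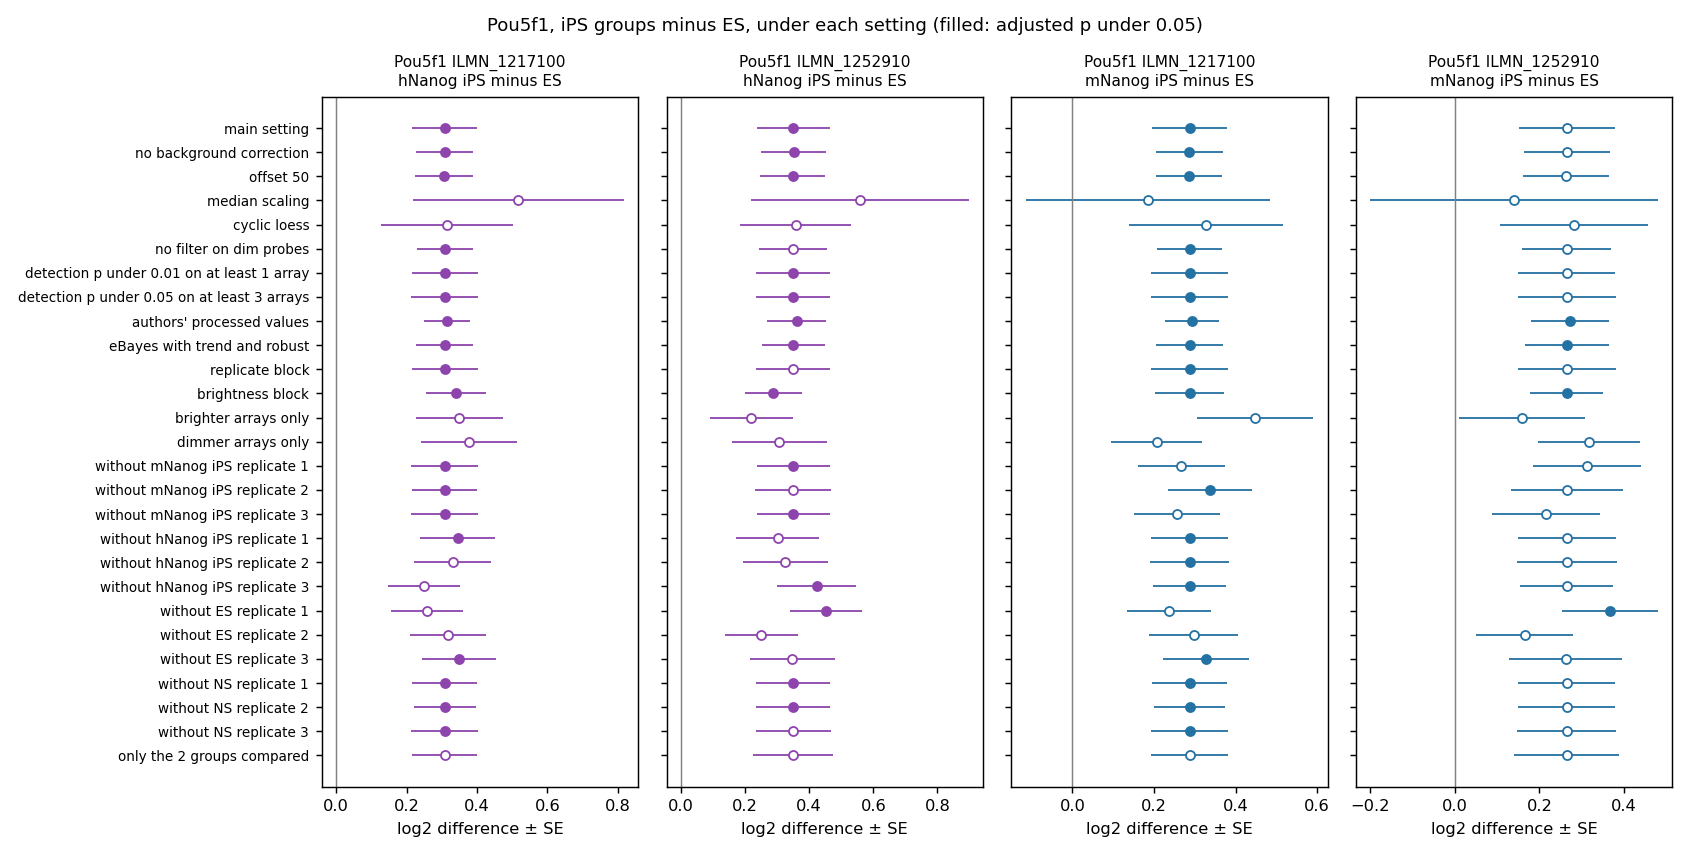
Pou5f1 difference between iPS and ES cells (log2 intensity, with SE) on its 2 probes under each processing setting; filled points have an adjusted p under 0.05. All points are above 0, and filled and open points both occur.

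Of 10 other genes with a Pou symbol, 2 had a named probe. Pou4f1 (Brn3a), a factor of sensory neurons, was detected on 3 hNanog iPS, 2 mNanog iPS and 3 ES arrays and on no NS array. It was read at 6.54, 6.82 and 6.70 in hNanog iPS, 5.65, 6.43 and 6.58 in mNanog iPS, 6.48, 5.80 and 6.0 in ES cells, and 4.49, 4.42 and 4.33 in NS cells. Every pluripotent array was above the NS arrays. Pou4f1 exceeded NS at least 2.76-fold in hNanog iPS, 2.00-fold in mNanog iPS and 1.83-fold in ES cells (adjusted p = 1.0e-06, 9.0e-06 and 1.7e-05, limma). Its probe passed the filter on dim probes only through the pluripotent groups, where it is high. Against ES cells Pou4f1 differed by 0.59 in hNanog iPS (adjusted p = 0.069) and by 0.13 in mNanog iPS (adjusted p = 0.71). The hNanog iPS arrays did not overlap ES, as for 41.9% of all tested probes. This difference passed without background correction (adjusted p = 0.041, limma), with an offset of 50 (0.043) and with the 2 groups alone (0.048). It also passed without mNanog iPS replicate 1 (0.015) or ES replicate 1 (0.024), and under no other alternative. Pou5f2 was detected on 2 of the 3 NS arrays and on no other array and did not enter the test.

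Target genes that Oct4 and Sox2 bind together in pluripotent cells were higher than in NS cells without exception among the 7 of 8 measured, in all 3 groups. Their median differences were 6.31 in hNanog iPS, 6.74 in mNanog iPS and 7.11 in ES minus NS, or 5.80, 6.23 and 6.71 with bounds for genes not detected in NS, against 0.12, 0.08 and 0.11 for all tested probes. Of all tested probes 40.3%, 38.5% and 40.2% passed as higher. All of the 7 but Dppa5a were detected on no NS array and passed the filter on dim probes only through the pluripotent groups, so their count is no support. Fbxo15, an Oct4-dependent F-box gene, exceeded its NS level at least 141-fold in hNanog iPS, 154-fold in mNanog iPS and 187-fold in ES cells. Dppa5a, an RNA-binding protein gene of pluripotent cells, was higher by 9.48, 9.56 and 9.56 log2 units.

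Against ES cells, 4 of these 7 genes were lower and none higher in hNanog iPS in the main setting, and the same counts held in mNanog iPS, with medians of -0.41 and -0.28. Of all tested probes 12.2% passed as lower in hNanog iPS and 16.7% in mNanog iPS. The 4 genes were Nanog (-2.01 in hNanog iPS and -1.58 in mNanog iPS), the Nodal antagonist Lefty1 (-1.05 and -1.71), the growth factor gene Fgf4 (-0.70 and -0.58) and Fbxo15 (-0.41 and -0.28), all read on 1 probe each. Fgf4 lay at 7.60 ± 0.089 in hNanog iPS, 7.73 ± 0.15 in mNanog iPS and 8.30 ± 0.068 in ES cells (SD, n = 3), and neither iPS group overlapped ES. The Fbxo15 call in mNanog iPS minus ES (adjusted p = 0.034) was lost without mNanog iPS replicate 2 (0.12) or 3 (0.058) and without ES replicate 1 (0.074) or 3 (0.11). Under median scaling of the arrays 1 of the 7 passed as lower in hNanog iPS (Nanog) and 2 in mNanog iPS (Nanog and Lefty1). On the dimmer arrays the hNanog iPS calls of Fgf4 (difference -0.70) and Fbxo15 (-0.57) and the mNanog iPS call of Fbxo15 (-0.29) were lost. The Fbxo15 calls of both iPS groups were lost on the brighter arrays. In mNanog iPS the Fbxo15 call was also lost under cyclic loess (adjusted p = 0.21, limma), with the replicate block (0.059) and with the 2 groups alone (0.052). Utf1 went the other way in hNanog iPS minus ES under some alternatives. It passed as higher without background correction (0.24, adjusted p = 0.049, limma) and with an offset of 50 (0.26, 0.042). The same held in the authors' processed values (0.20, 0.029) and without ES replicate 1 (0.38, 0.034). Nanog is the gene the iPS cells were made with, and its other probe, given above, read 12.17 to 12.54 in mNanog iPS against 11.51 to 11.68 in ES cells. Between the iPS groups Lefty1 was higher in hNanog iPS (0.66, adjusted p = 0.0012), a call lost under median scaling (0.18) and on the dimmer arrays (difference 0.59). Nanog was lower there (-0.43, adjusted p = 0.0496). Without 1 array the Nanog call was lost for 9 of the 12 arrays, all but mNanog iPS replicate 1, ES replicate 3 and NS replicate 2 (adjusted p = 0.055 to 0.15). It was also lost under median scaling (-0.14, adjusted p = 0.88, limma) and cyclic loess (0.071), and on the dimmer arrays (-0.37). The same held with no filter or other filters on dim probes (0.057 to 0.089), the replicate block (0.092) and the 2 groups alone (0.075).

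Of 6 Oct4 partner factors 5 were measured. Against NS cells, 4 were higher in every pluripotent group: the nuclear receptors Esrrb (7.44 in hNanog iPS, 7.46 in mNanog iPS and 7.44 in ES minus NS) and Nr5a2 (4.03, 4.43 and 4.90), the zinc finger gene Klf4 (5.06, 4.64 and 5.17) and Sall4, which was at least 104-fold, 109-fold and 123-fold higher. Of all tested probes 40.3%, 38.5% and 40.2% passed as higher than NS, in the same order of groups. Sall4 was detected on no NS array and passed the filter on dim probes only through the pluripotent groups, so the count is no support. Sox2, the HMG-box partner of Oct4 that neural stem cells also express, was at 9.37 ± 0.12 in hNanog iPS, 9.49 ± 0.14 in mNanog iPS, 9.87 ± 0.036 in ES and 9.72 ± 0.032 in NS cells (SD, n = 3). Sox2 was lower than in NS in hNanog iPS (-0.35, adjusted p = 0.0047, limma), a call lost under median scaling (0.20) and on the dimmer arrays (difference -0.37). It was lower in mNanog iPS (-0.22, adjusted p = 0.047), a call lost without any one of 10 of the 12 arrays, all but replicate 1 of mNanog iPS and of hNanog iPS (adjusted p = 0.053 to 0.17). The mNanog iPS call was also lost under median scaling (0.084), with no filter or other filters on dim probes (0.053 to 0.059), with the replicate block (0.056) and with the 2 groups alone (0.092). On the dimmer arrays the mNanog iPS difference was -0.13, and the call was lost. In ES cells Sox2 differed from NS by 0.15 (adjusted p = 0.17). Against ES cells, Sox2 (-0.50 and -0.37) and Nr5a2 (-0.87 and -0.47) were lower in hNanog iPS and mNanog iPS, and no partner was higher. Of all tested probes 12.2% passed as lower in hNanog iPS minus ES and 16.7% in mNanog iPS minus ES. The Nr5a2 call in mNanog iPS (adjusted p = 0.019) was lost without mNanog iPS replicate 2 (0.076), ES replicate 1 (0.059) or ES replicate 3 (0.058). Other partners passed as lower than ES only under some alternatives. Among these were Klf4 in mNanog iPS with the brightness block (-0.53, adjusted p = 0.015, limma) and Sall4 in hNanog iPS in the authors' processed values (-0.24, 0.031). Between the iPS groups no partner passed in the main setting. Nr5a2 passed as lower in hNanog iPS under some alternatives, such as no background correction (-0.38, 0.0084).

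Of 5 repressors of Pou5f1 3 were measured. Nr6a1, a nuclear receptor that silences Pou5f1 as ES cells differentiate, was higher in all pluripotent groups than in NS cells, by 2.92 in hNanog iPS, 3.24 in mNanog iPS and 2.40 in ES. It was also higher than in ES cells, by 0.52 in hNanog iPS (adjusted p = 0.0016) and by 0.84 in mNanog iPS (adjusted p = 2.9e-05), at levels of 8.44 ± 0.085, 8.75 ± 0.14 and 7.92 ± 0.10 in hNanog iPS, mNanog iPS and ES (SD, n = 3). Between the iPS groups Nr6a1 was lower in hNanog iPS (-0.32, adjusted p = 0.045), a call lost without any one of 9 arrays, all but mNanog iPS replicate 2, ES replicate 1 and NS replicate 2 (adjusted p = 0.052 to 0.14). This call was also lost under median scaling (-0.035, adjusted p = 0.98, limma) and cyclic loess (0.066). It was lost with no filter or other filters on dim probes (0.054 to 0.057), with the replicate block (0.074) and with the 2 groups alone (0.098). On the brighter arrays (-0.43) and on the dimmer arrays (-0.33) it was lost too. Under median scaling the calls of Nr6a1, Sox2 and Nr5a2 between iPS and ES cells were lost, with the same signs. The Sox2 calls were also lost within each brightness class (differences of -0.57 to -0.33), and the Nr6a1 call in hNanog iPS on the dimmer arrays (0.48). In mNanog iPS the Nr5a2 call was lost on the brighter arrays (-0.45), on the dimmer arrays (-0.48) and under cyclic loess (adjusted p = 0.071, limma). Cdx2, a trophectoderm homeobox gene that opposes Oct4, was detected on the 3 ES arrays and on no other, and was at least 4.87-fold lower in hNanog iPS and 4.53-fold lower in mNanog iPS than in ES cells. Ehmt2, a histone methyltransferase gene, was lower in mNanog iPS (-0.49) and in ES (-0.38) than in NS cells, and differed by -0.14 in hNanog iPS (adjusted p = 0.27). The Ehmt2 call in ES was lost on the dimmer arrays (difference -0.42). Under cyclic loess Ehmt2 also passed as lower in hNanog iPS than in NS cells (-0.36, adjusted p = 0.014, limma).

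Partners and targets of class III POU factors in neural cells were measured for 7 of 10 genes. All 7 were lower in hNanog iPS and in mNanog iPS than in NS cells and 6 were lower in ES cells, with medians of -3.54, -3.74 and -3.71, or -2.76, -2.65 and -2.68 with bounds, against 0.12, 0.08 and 0.11 for all tested probes. Of all tested probes 34.7%, 35.9% and 34.6% passed as lower. Fabp7 and Hes5 were detected in NS cells only and passed the filter through NS, so the count is no support, and it includes the Sox2 calls, whose losses are given above. Sox11, a partner of class III POU factors, was lower in hNanog iPS (-6.27) and in mNanog iPS (-6.05) and at least 79.6-fold lower in ES cells. Sox4, a close relative of Sox11, was lower in all 3 groups (-5.66, -5.66 and -5.97). Nes, whose neural enhancer class III POU and Sox factors bind, was lower in hNanog iPS (-5.06), mNanog iPS (-5.55) and ES cells (-4.41). Fabp7, a radial glia gene, was at least 6.40-fold, 5.95-fold and 6.07-fold lower. Sox2 is also in the list of Oct4 partners, and was the member that did not pass in ES cells. Against ES cells, Sox11 was higher in hNanog iPS (0.49) and in mNanog iPS (0.70), where it was detected on 2 of 3 arrays of each and on no ES array, so that the bounds were 1.03-fold and 1.20-fold. The hNanog iPS call (adjusted p = 0.012) was lost without hNanog iPS replicate 1 (0.052), without background correction (0.051), under cyclic loess (0.14) and median scaling (0.49), in the authors' processed values (0.15) and on the brighter (0.064) or dimmer (0.28) arrays alone. The mNanog iPS call was lost under median scaling (0.38) and on the dimmer arrays (0.051). Nes was lower in mNanog iPS than in ES cells (-1.15, adjusted p = 0.0028), a call lost under median scaling (0.10) and on the dimmer arrays (0.062). In hNanog iPS Nes differed from ES by -0.66 (adjusted p = 0.061), and passed under 9 of the alternatives, among them without ES replicate 2 (-0.98, adjusted p = 0.0018) and without mNanog iPS replicate 3 (adjusted p = 0.048).

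**Figure D4:**
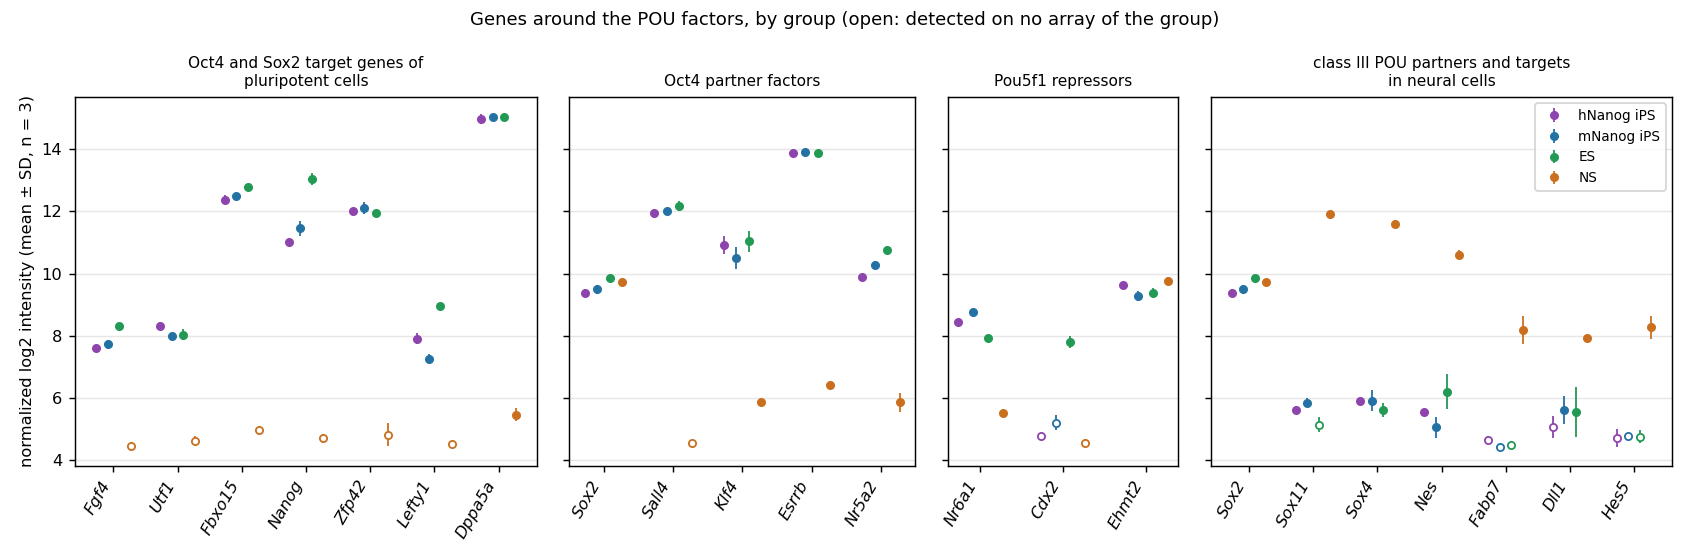
Mean log2 intensity with SD by group of the genes in 4 lists (targets of Oct4 and Sox2, Oct4 partners, Pou5f1 repressors, class III partners and targets); open symbols are genes detected on no array of the group. Sox2 stays between 9.37 and 9.87 in all groups, while Sox11 and Nes are highest in NS cells and Cdx2 is detected in ES cells alone.

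The summed markers of other cell types were set beside the members. The neural stem cell markers summed to 167 to 176 in hNanog iPS, 230 to 247 in mNanog iPS, 173 to 291 in ES and 62978 to 67252 in NS cells (normalized linear intensity). Of the 6 measured, 1 was detected on at least 1 array in hNanog iPS (Nes) and 2 in mNanog iPS (Nes and Sox9). In ES cells 3 were (Nes, Olig1 and Slc1a3). Olig2 and Fabp7 were detected on no pluripotent array. The pluripotent markers summed to 69067 to 73340 in hNanog iPS, 72470 to 77507 in mNanog iPS, 76567 to 82151 in ES and 231 to 260 in NS cells. Fibroblast markers (2 of 4 measured) summed to 379 to 439 in mNanog iPS, against 47.3 to 63.2 in hNanog iPS, 46.9 to 52.5 in ES and 81.4 to 94.9 in NS cells, and Col1a1 was detected in mNanog iPS only. Their part in the mNanog iPS values was not tested. Of 5 primed epiblast markers 3 were measured: Pou3f1 was not detected in any pluripotent group, Otx2 was highest in ES cells (6.36 in hNanog iPS, 5.43 in mNanog iPS and 8.31 in ES), and Dnmt3b was at 11.75, 12.02 and 11.45. Of 4 markers of oligodendrocytes and Schwann cells 2 were measured: Sox10 was detected in NS cells only, and Mbp, detected on all 3 ES arrays, on no NS array. They summed to 52.2 to 76.2 in hNanog iPS, 49.3 to 51.3 in mNanog iPS, 149 to 176 in ES and 135 to 173 in NS cells. Neuron markers (3 of 5 measured) summed to 1927 to 2020 in hNanog iPS, 1818 to 1995 in mNanog iPS, 1697 to 1805 in ES and 4897 to 5117 in NS cells. Stmn2 was detected on no NS array and Rbfox3 on no pluripotent array. Dab2, the 1 of 4 primitive endoderm markers measured, lay at 89.7 to 111 in hNanog iPS, 49.9 to 73.8 in mNanog iPS, 23.8 to 25.8 in ES and 334 to 350 in NS cells. The part of these cell types in the NS values of the class III genes was not tested.

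The genes closest to each member across the 12 arrays were found by Euclidean distance between log2 intensities over all tested probes with a symbol, given here as a description. For Pou5f1 they were Klf2 (distance 0.657), Gstp2 (0.722) and Esrrb (0.743) on ILMN_1217100, and Tfcp2l1 (0.660), Laptm5 (0.878) and Rps4l (1.49) on ILMN_1252910. For Pou3f1 they were Wnt7b (0.769), Mfsd2a (0.828) and Mdga2 (0.830). For Pou3f3 they were Katnal2 (0.299), Fgfr3 (0.306) and Cp (0.382), and for Pou3f4 they were Mpdz (0.421), Spsb4 (0.468) and Bcl2 (0.476). The arrays share platform and normalization, and the distances are not tests.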

How the data were processed

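RNA was amplified with a TotalPrep kit, per the labels' protocols. For every probe and array the authors deposited a linear intensity, neither corrected nor normalized, and a detection p-value. Their deposited processed table (20513 probes) is read as log2, judged from its values, and each of its columns correlated best with its own array. The slide and the scanner software, not given in the sources used here, could not enter a fit. Signals were corrected and quantile normalized with neqc (offset 16) in limma 3.58.1 (R 4.3.3), and a model of 4 group means was fitted to all 12 arrays (lmFit, eBayes). Benjamini-Hochberg adjustment ran over 18185 probes, with a threshold of 0.05. The number of arrays limits the precision.

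A probe detected on none of the 3 arrays of a group gives only a bound ("at least N-fold"), against the higher, per array, of the lowest detected level and its own value; probes undetected in both groups were not counted. Differences run first group minus second, and fold bounds set the detected group over the undetected one. List genes were read from their brightest tested probe, and up to 4 members per list with the largest changes past the threshold were named, beside all member probes and the 3 nearest genes of each. Sox2 against NS, Ehmt2, Nes in hNanog iPS against ES, Otx2, Dnmt3b, Sox10, Mbp, Stmn2, Rbfox3, Dab2, Col1a1, Hes5 and the second probe of Nanog were named after their values were seen. So were Utf1, Klf4 and Sall4 against ES, Nr5a2 between the iPS groups, and Olig1, Olig2, Slc1a3 and Sox9. Members and lists were chosen with earlier results of these data known. Same-numbered arrays did not deviate together (r from -0.51 to 0.37 over 18 pairs), so replicate number was not used. Arrays of like brightness did (median r 0.30); the model holds no brightness term, and a fit with it as a block is among the alternatives. The test was checked on simulated data with noise drawn independently for each probe and array. Those data hold no shared deviation by brightness, so the check cannot speak to its effect here.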

Additional observations from a re-analysis of the deposited data

How the results depend on the processing

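All 5 member probes passed against NS cells, in the same direction, under every alternative run. Calls between iPS and ES cells moved. In hNanog iPS minus ES 2 member probes passed, against 0 under median scaling, cyclic loess, the brighter arrays, the dimmer arrays or the 2 groups alone, and 1 with no filter on dim probes. In mNanog iPS minus ES 1 passed, against 0 under median scaling, cyclic loess, the brighter arrays, the dimmer arrays or the 2 groups alone, and 2 with the authors' processed values, a trended and robust eBayes or the brightness block. With the replicate block 1 member probe passed in each of these comparisons; the numbers do not pair the samples. Leaving out 1 array gave 0 to 2 and 0 to 1. Pou5f1 in hNanog iPS minus mNanog iPS turned sign on ILMN_1217100 under cyclic loess (-0.0128) and on the brighter arrays (-0.0985), and on ILMN_1252910 on the dimmer arrays (-0.0106); leaving out 1 array it ran from -0.0381 to 0.0579 on ILMN_1217100, and Pou4f1 in mNanog iPS minus ES from -0.0529 to 0.411. The causes were not tested. Over all probes, median scaling called 8858 (3773 higher and 5085 lower; 7333 and 6314 in the main setting) in hNanog iPS minus NS, 9119 (2760 and 6359; 7007 and 6527) in mNanog iPS minus NS, 8781 (2849 and 5932; 7316 and 6286) in ES minus NS, 730 (555 and 175; 2437 and 2225) in hNanog iPS minus ES, 927 (605 and 322; 2833 and 3045) in mNanog iPS minus ES and 311 in hNanog iPS minus mNanog iPS. It moved the median of all probes to -0.32 in mNanog iPS minus NS, against 0.08 in the main setting. The brighter arrays called 3771 in mNanog iPS minus ES, and the dimmer arrays 3752 there, 1391 in hNanog iPS minus ES and 529 in hNanog iPS minus mNanog iPS, from fewer arrays. Levels near background limit the class III probes outside NS cells to bounds.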
